A study of Homo sapiens with 8 samples.

Results

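The genes described here encode the subunits of the mitochondrial respiratory chain and ATP synthase that are carried in the nucleus. They were chosen by symbol: entries starting with NDUFA, NDUFB, NDUFC, NDUFS or NDUFV (complex I), UQCR (complex III), COX4 to COX8 (complex IV) or ATP5 (complex V), together with SDHA, SDHB, SDHC and SDHD (complex II) and CYC1 (complex III). Among 29991 deposited entries, 97 matched, 2 were pseudogenes and were left out, and 95 remained. Of these 95, 76 are usual subunits, with 37 in complex I, 4 in complex II, 9 in complex III, 11 in complex IV and 15 in complex V. Despite its symbol, NDUFA4 is counted in complex IV. The others are 7 assembly or associated factors, 8 tissue isoforms, 2 readthrough entries, the UQCRH copy UQCRHL and COX4NB, whose product belongs to another complex although its symbol matches.

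The polyadenylated RNA of MCF10A cells was sequenced, an immortalised, non-tumorigenic line of human breast epithelium. All cells were transfected: with a control siRNA (siControl), with siRNA for LATS1 and LATS2, kinases of the Hippo pathway (siLATS1/2), with siRNA against the tumour suppressor p53 (sip53), or with siRNA against LATS1, LATS2 and p53 together (siLATS1/2/p53). Each of the 4 groups had 2 libraries, 1 from each of 2 independent batches of cells, so there are 8 libraries. The number of siRNAs per target and the time after transfection are not in the labels.

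The respiratory chain passes electrons from NADH (complex I) and succinate (complex II) through ubiquinone, complex III and cytochrome c to complex IV, where oxygen is reduced. Complexes I, III and IV pump protons, and complex V, the ATP synthase, uses the proton gradient to make ATP. Complexes I, III, IV and V combine subunits encoded in the nucleus and in the mitochondrial genome, whereas complex II is encoded in the nucleus alone. The nuclear genes are often regulated together, and the transcription factors NRF1, GABP (of the ETS family) and YY1 are known to act on many of them.

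Of the siRNA targets, LATS1 fell by 1.58 ± 0.11 and LATS2 fell by 1.39 ± 0.14 on the log2 scale in siLATS1/2 from their siControl levels (difference ± standard error; limma, adjusted p = 0.00151 and 0.00362). Estimated depth was 11.3 to 37.1 M reads per library, lowest in siLATS1/2/p53 replicate 1 and siControl replicate 1. All 10 basal epithelial markers were detected, with a summed signal of 235 to 316 k on the linear scale in siControl, 195 to 244 k in siLATS1/2, 197 to 254 k in sip53 and 200 to 241 k in siLATS1/2/p53. In siLATS1/2 against siControl their median difference was -0.31 on the log2 scale, with 8 of 10 lower. Of the 10, 2 rose and 0 fell (2 and 7 with the batch as a block in the model). Of all entries tested 2.81% were called higher and 4.89% lower, and 10.5% and 21.4% with the block. The luminal markers KRT19 and PGR, 4 of 6 fibroblast markers, 4 of 5 blood markers and all 3 endothelial markers were at the floor of the table throughout. The summed signal of the 6 luminal markers was 2.56 to 3.28 k on the linear scale in siControl and 2.80 to 3.67 k in sip53. It was 5.48 to 7.55 k in siLATS1/2 and 6.82 to 8.83 k in siLATS1/2/p53. The part of these markers in the differences below was not tested. In bulk RNA, fewer cells of a kind and less RNA per cell cannot be told apart.

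The usual subunits were well expressed, and the tissue isoforms were not. The table's floor is a log2 level of 5 (32 on the linear scale), which stood for an estimated 14.6 to 50 reads. Above it in all 8 libraries were 85 of the 95 members, and 83 exceeded a log2 level of 8 in every library. The median level of the 86 members tested was 10.21, against 9.51 for all 12315 entries tested, and 68 of the 86 lay above the latter. The entries at the floor in all 8 libraries were COX4I2, COX6A2, COX7A1, COX7B2, COX8C, NDUFA4L2, ATP5L2, NDUFC2-KCTD14 and ATP5J2-PTCD1. COX6B2, the testis form of subunit 6B, was at the floor in 5 libraries and at 5.58, 5.02 and 5.36 in siControl replicate 2, sip53 replicate 1 and sip53 replicate 2.

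Each of these isoforms has a widely expressed counterpart, and the counterparts were all well above the floor. COX4I1 had levels of 12.19 to 12.52 over the 8 libraries, COX6A1 10.24 to 10.52, COX6B1 10.83 to 11.34, COX7A2 10.94 to 11.27, COX7B 10.55 to 10.89, COX8A 11.13 to 11.81 and NDUFA4 10.19 to 10.79. COX5A (10.84 to 11.26) and COX5B (10.08 to 10.56) encode separate subunits. The 3 genes for the c ring of complex V were all expressed, ATP5G1 at 9.98 to 10.55, ATP5G2 at 10.40 to 10.79 and ATP5G3 at 11.90 to 12.44. These are levels per gene, and the sources used here do not say whether they were scaled by transcript length. If they were, the values per kilobase below are corrected for length more than once. Divided by the median length of a gene's annotated coding transcripts, the linear signal was highest for NDUFB9 in complex I (8086 units per kilobase), UQCRQ in complex III (3981) and ATP5B, the catalytic beta subunit, in complex V (9357). It was lowest for NDUFA4 in complex IV (693) and ATP5E in complex V (436). These 5 places held with the length of the principal transcripts instead, whereas the ends of the order in complex II, the lowest in complexes I and III, and the highest in complex IV depended on the length taken.

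Promoter sequences are shown for 6 members named in the comparisons below, to set the letters known for NRF1 and ETS factors beside the values. SDHA and SDHD are the largest and a membrane-anchoring subunit of complex II, NDUFA9 and UQCRC1 are subunits of complexes I and III, and NDUFB6 and NDUFA7 are accessory subunits of complex I. The 120 bases before each RefSeq transcription start (GRCh38.p14) are given 5′ to 3′ on the strand of the gene, with matches in capitals.
SDHA, chr5:218200-218319, plus strand: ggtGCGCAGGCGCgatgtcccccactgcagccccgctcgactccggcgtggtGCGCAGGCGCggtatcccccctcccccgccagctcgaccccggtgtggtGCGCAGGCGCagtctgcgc
SDHD, chr11:112086753-112086872, plus strand: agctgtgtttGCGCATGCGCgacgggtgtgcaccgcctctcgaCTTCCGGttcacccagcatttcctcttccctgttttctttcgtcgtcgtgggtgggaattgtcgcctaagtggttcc
NDUFA9, chr12:4648994-4649113, plus strand: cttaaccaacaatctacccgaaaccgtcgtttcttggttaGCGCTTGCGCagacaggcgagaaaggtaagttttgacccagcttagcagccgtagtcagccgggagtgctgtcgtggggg
UQCRC1, chr3:48609647-48609766, minus strand: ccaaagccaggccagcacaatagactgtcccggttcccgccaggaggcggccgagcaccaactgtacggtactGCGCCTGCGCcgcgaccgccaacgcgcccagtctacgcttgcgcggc
NDUFB6, chr9:32573160-32573279, minus strand: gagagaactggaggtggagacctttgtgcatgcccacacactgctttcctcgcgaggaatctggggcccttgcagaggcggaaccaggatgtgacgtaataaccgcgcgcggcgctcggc
NDUFA7, chr19:8321376-8321495, minus strand: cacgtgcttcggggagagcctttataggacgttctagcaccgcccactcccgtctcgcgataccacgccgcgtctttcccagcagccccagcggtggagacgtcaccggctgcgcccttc
The letters searched were GCGCNTGCGC for NRF1, CCGGAAG for ETS factors and AAGATGGCG for YY1, on both strands. SDHA, which passed in no comparison without the batch block, is shown for its repeated match. It held 4 matches for NRF1 in the 250 bases before its start, of which the sequence above shows the 3 at 117, 68 and 19 bases. SDHD held matches for NRF1 at 110 bases and for ETS factors at 77 bases, NDUFA9 for NRF1 at 80 bases and UQCRC1 for NRF1 at 47 bases. No match was found in the windows of NDUFB6 and NDUFA7. Among the 76 members matched to a promoter, 14 (18.4%) held the NRF1 letters, 18 (23.7%) the ETS letters and 1 (1.32%) the YY1 letters in 250 bases. The shares were 5.53%, 8.82% and 0.641% of all 27305 promoters, and 11.1%, 16.7% and 1.09% of the 9672 tested entries with a promoter. A match describes the letters and is not evidence of binding.

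With LATS1/2 siRNA most respiratory chain genes had lower levels than in siControl, by a small amount, and few differences passed the test. The median difference of the 86 members tested was -0.19 on the log2 scale, against -0.07 for all entries tested, and 75 of the 86 were lower. All 5 complexes had negative medians: -0.12 for complex I, -0.25 for complex II, -0.29 for complex III, -0.16 for complex IV and -0.19 for complex V. Both siLATS1/2 libraries lay below both siControl libraries in 54 of 86 members (62.8%, against 34.8% of all entries). The median was -0.16 within batch 1 and -0.20 within batch 2, and 61 of 86 members were lower in both batches (47.7% of all entries were).

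Of the 86 members 6 fell and 0 rose at an adjusted p under 0.05 (limma over all entries, Benjamini-Hochberg). That is 6.98% lower, against 4.89% of all entries called lower and 7.7% called in either direction, so the count is near the background (2.81% were called higher). With the batch as a block 30 fell (34.9%; 21.4% of all entries) and 1, NDUFA7, rose (10.5% of all entries). With the block and rescaling 16 fell and 2 rose (13.5% and 14.7% of all entries). Of the 30 that fell with the block alone, 10 were among the 37 subunits of complex I, 3 among 4 in complex II, 6 among 9 in complex III, 4 among 11 in complex IV and 5 among 15 in complex V.

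**Figure D1:**
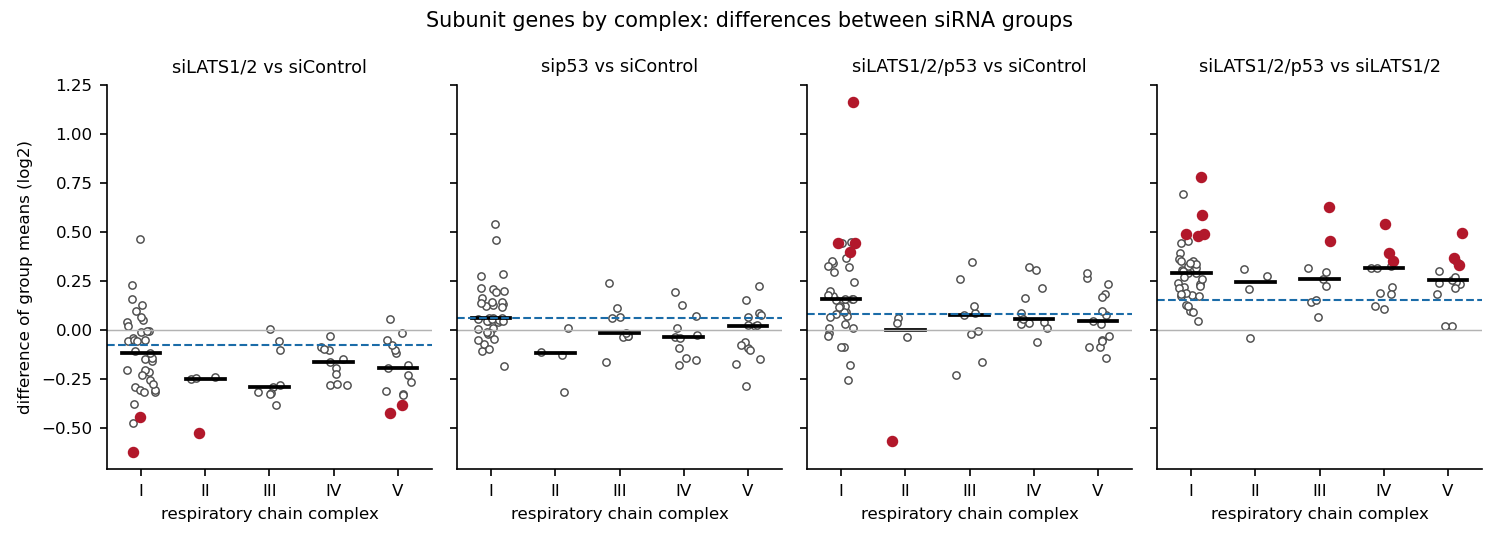
Differences of group means (log2, y axis) for the 76 usual subunits tested, by complex (x axis), in 4 comparisons. Each point is a gene, filled red where the adjusted p is under 0.05, the black bar is the median of the complex and the dashed blue line the median of all entries; in siLATS1/2 against siControl all 5 black bars lie below the blue line, and in siLATS1/2/p53 against siLATS1/2 all 5 lie above it.

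SDHD, a membrane anchor of complex II, had the smallest p in this comparison. Its log2 level was 10.92 and 10.83 in siControl, 10.39 and 10.31 in siLATS1/2, 10.56 and 10.57 in sip53, and 10.34 and 10.28 in siLATS1/2/p53. The siControl libraries were the highest, and no other group overlapped with them. SDHD fell by 0.52 ± 0.08 on the log2 scale (1.44-fold; limma, adjusted p = 0.0144), by 0.52 within each batch. The other 3 complex II subunits, SDHA (-0.25 ± 0.09), SDHB (-0.24 ± 0.11) and SDHC (-0.25 ± 0.10), had adjusted p-values of 0.149, 0.219 and 0.193 in limma, and of 0.0237, 0.0544 and 0.0475 with the batch block.

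NDUFS1, the largest subunit of complex I and part of its NADH-oxidising arm, had levels of 11.30 and 11.45 in siControl and 10.91 and 10.95 in siLATS1/2. It fell by 0.44 ± 0.09 (limma, adjusted p = 0.0327). NDUFB6, an accessory subunit of the membrane arm, had 9.91 and 9.54 in siControl and 9.04 and 9.17 in siLATS1/2. It fell by 0.62 ± 0.14 (limma, adjusted p = 0.0410), with differences of -0.87 in batch 1 and -0.37 in batch 2. Both genes were without overlap between the groups, and the drop of NDUFB6 was uneven between batches.

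In complex V the catalytic alpha subunit and a c-ring gene passed. ATP5A1 had levels of 13.41 and 13.50 in siControl and 13.05 and 13.10 in siLATS1/2, and fell by 0.38 ± 0.08 (limma, adjusted p = 0.0394). ATP5G3 had 12.27 and 12.44 in siControl and 11.90 and 11.96 in siLATS1/2, and fell by 0.42 ± 0.10 (limma, adjusted p = 0.0431). The beta subunit gene ATP5B differed by -0.32 ± 0.10 (limma, adjusted p = 0.104; 0.00391 with the batch block). The complex I assembly factor NDUFAF4 had 9.20 and 9.09 in siControl and 8.65 and 8.66 in siLATS1/2, and fell by 0.49 ± 0.11 (limma, adjusted p = 0.0408).

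No member of complexes III and IV passed without the block. CYC1, the cytochrome c1 subunit of complex III, had levels of 10.90 and 11.18 in siControl and 10.68 and 10.84 in siLATS1/2, so that the groups did not overlap while the batches differed within each (difference -0.28 ± 0.15; limma, adjusted p = 0.312; 0.0107 with the batch block). UQCRC1 differed by -0.38 ± 0.10 (limma, adjusted p = 0.0583; 0.0021 with the batch block). COX4I1, a nuclear subunit of complex IV, differed by -0.28 ± 0.08 (limma, adjusted p = 0.0883; 0.0087 with the batch block).

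The composition of the siLATS1/2 libraries differed from the others in the signal the members take. The 95 members made up 0.573% and 0.596% of the summed linear signal in siLATS1/2, against 0.647% and 0.686% in siControl, 0.668% and 0.671% in sip53, and 0.689% and 0.679% in siLATS1/2/p53. The 10 highest entries took 13.9% and 15.5% in siLATS1/2 and 10.9% to 13% in the other 6 libraries. The entries MTND5 and cytochrome b, which carry the names of mitochondrially encoded subunits of complexes I and III, together took 1.28% and 1.57% in siLATS1/2, against 1.07% and 1.24% in siControl. MTND5 differed by 0.31 ± 0.15 (limma, adjusted p = 0.241; 0.0119 with the batch block). After rescaling by medians of ratios the members' median difference was -0.11 and 2 fell, SDHD and NDUFS1 (2.83% of all entries were called lower and 3.55% higher). The 6 calls depended on single libraries, and none of them held when each library was left out in turn. Such a fit leaves 1 library in a group, so its count of calls is not given.

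**Figure D2:**
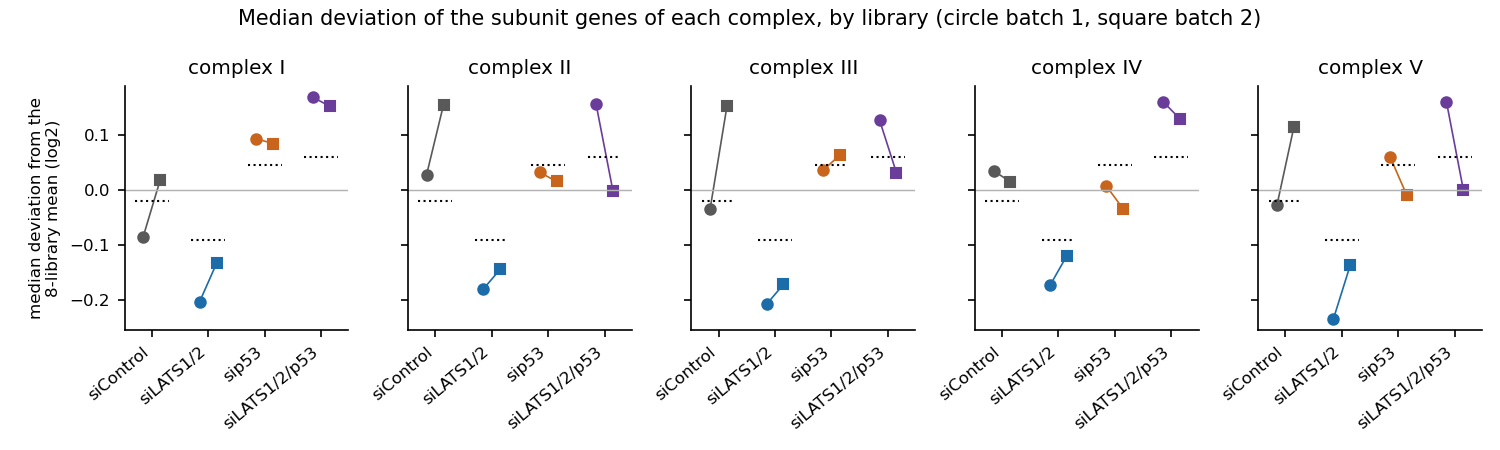
Median deviation of the subunit genes of each complex from their mean over the 8 libraries (log2, y axis), for each library by group (x axis); circles are batch 1, squares batch 2, and dotted bars the same median over all entries, averaged over both batches. Both siLATS1/2 libraries lie below 0 and below the dotted bar in all 5 complexes, while in siControl batch 2 lies above batch 1 in every complex but complex IV.

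With p53 siRNA alone the respiratory chain genes as a group had a median difference from siControl near 0. This median was 0.02 on the log2 scale, against 0.06 for all entries, with 49 of 86 members higher and 37 lower. It was 0.08 within batch 1 and -0.02 within batch 2. The median took the opposite sign after rescaling (-0.04). By complex it was 0.06, -0.12, -0.01, -0.04 and 0.02 for complexes I to V. In limma 0 members passed (1.76% of all entries were called higher and 2.1% lower, 3.86% in all). An unadjusted p under 0.05 was found for 7 of 86 members and for 2631 of all 12315 entries, a larger share. With the batch block 4 rose (4.65%; 16% of all entries) and 2 fell (2.33%; 10% of all entries), both shares below the background. With the block and rescaling 2 rose and 6 fell (11% and 13.7% of all entries).

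The 5 smallest p-values belonged to NDUFC2, SDHD, COX7A2L, NDUFA7 and NDUFA2. NDUFC2, a membrane arm subunit of complex I, had 9.59 and 9.49 in siControl and 10.02 and 9.98 in sip53, without overlap (0.46 ± 0.10; limma, adjusted p = 0.0532; 0.00292 with the block). NDUFC2 shares exons with the readthrough entry NDUFC2-KCTD14, which was itself at the floor. SDHD differed by -0.31 ± 0.08 (limma, adjusted p = 0.0889; 0.0085 with the block). COX7A2L, which takes part in joining complexes III and IV into supercomplexes, had 10.31 and 10.21 in siControl, 9.88 and 9.84 in sip53, and 10.11 and 10.12 in siLATS1/2 (sip53 difference -0.40 ± 0.11; limma, adjusted p = 0.102; 0.00582 with the block). NDUFA7 (0.54 ± 0.20) and NDUFA2 (0.29 ± 0.11) both had an adjusted p of 0.179 in limma, and of 0.0037 and 0.0428 with the block. The fourth rise with the block was that of CYC1 (0.24 ± 0.15 without it; limma, adjusted p = 0.410; 0.0264 with the block).

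When p53 siRNA was added to LATS1/2 siRNA, respiratory chain genes were higher than with LATS1/2 siRNA alone in nearly every case. The median difference between siLATS1/2/p53 and siLATS1/2 was 0.27 on the log2 scale, against 0.15 for all entries, with 83 of 86 members higher and 2 lower. The medians of the complexes were close to each other: 0.29, 0.24, 0.26, 0.32 and 0.26 for complexes I to V. Both siLATS1/2/p53 libraries lay above both siLATS1/2 libraries in 69 of 86 members (80.2%; 46.1% of all entries), and in 0 members below. Within batches the median was 0.36 in batch 1 and 0.19 in batch 2, with 76 members higher in both (57.3% of all entries). This comparison shares the siLATS1/2 libraries with the comparison of siLATS1/2 and siControl, so the values of both are given side by side only.

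Of the 86 members 14 rose and 0 fell (16.3% higher, against 11.3% of all entries higher and 3.22% lower). Of these, 5 were in complex I, 2 in complex III, 3 in complex IV, 3 in complex V and 1, NDUFAF3, is an assembly factor. With the batch block 53 rose (61.6%; 33.8% of all entries) and 0 fell (9.72% of all entries). After rescaling, which moved the median of all entries from 0.15 to near 0, the members' median was 0.11 and 5 rose, NDUFAF3, ATP5G1, NDUFA9, NDUFB6 and NDUFA2 (5.81%, near the 4.44% of all entries called higher; 5.3% were called lower). With the block and rescaling 17 of 86 rose and 1 fell, against 16.2% and 17.9% of all entries, so that the rises too were near the background. These calls depended on single libraries, and none of the 10 with the smallest p held when each library was left out in turn. Such a fit leaves 1 library in a group, so its count of calls is not given.

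In complex I, NDUFB6 had 9.96 and 9.82 in siLATS1/2/p53, against 9.04 and 9.17 in siLATS1/2, and rose by 0.78 ± 0.14 (limma, adjusted p = 0.0146). NDUFA9, a subunit of the ubiquinone-binding part, had 11.47 and 11.38 against 10.93 and 10.94, and rose by 0.49 ± 0.09 (limma, adjusted p = 0.0143). NDUFA2 had 9.93 and 9.92 against 9.37 and 9.30, and rose by 0.59 ± 0.11 (limma, adjusted p = 0.0151). The groups were apart for all 3 genes, and the siControl level of NDUFB6 (9.91 and 9.54) lay above both siLATS1/2 libraries. NDUFA12, a subunit of the arm in the matrix, rose by 0.48 ± 0.11 (limma, adjusted p = 0.0284). NDUFAF3, a partner of NDUFAF4 in complex I assembly, had 8.44 and 8.52 in siControl, 8.42 and 8.22 in siLATS1/2, 8.68 and 8.70 in sip53, and 9.12 and 9.03 in siLATS1/2/p53. It was highest in siLATS1/2/p53 and rose there by 0.75 ± 0.12 over siLATS1/2 (limma, adjusted p = 0.0106).

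In complexes III and IV, UQCRC1 had 12.43 and 12.31 in siLATS1/2/p53, against 11.83 and 12 in siLATS1/2, and rose by 0.46 ± 0.10 (limma, adjusted p = 0.0235). CYC1 had 11.26 and 11.51 against 10.68 and 10.84, and rose by 0.63 ± 0.15 (limma, adjusted p = 0.0371). COX8A, the usual form of the smallest subunit of complex IV, had 11.60 and 11.81 against 11.19 and 11.13, and rose by 0.54 ± 0.11 (limma, adjusted p = 0.0199). COX5A rose by 0.35 ± 0.08 (limma, adjusted p = 0.0253). In all 4 genes the libraries of the groups were apart.

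In complex V, ATP5G1, which encodes the same mature c-ring protein as ATP5G2 and ATP5G3, had 10.55 and 10.43 in siLATS1/2/p53 against 9.98 and 10.02 in siLATS1/2, and rose by 0.49 ± 0.08 (limma, adjusted p = 0.0128). ATP5G3 differed by 0.34 ± 0.10 (limma, adjusted p = 0.0555; 0.00417 with the block). ATP5F1, a subunit of the peripheral stalk, rose by 0.37 ± 0.08 (limma, adjusted p = 0.0279). In complex II, SDHD differed by -0.04 ± 0.08 (limma, adjusted p = 0.776), while SDHA, SDHB and SDHC differed by 0.31 ± 0.09, 0.28 ± 0.11 and 0.21 ± 0.10 (limma, adjusted p = 0.0646, 0.122 and 0.197; 0.00528, 0.0222 and 0.0660 with the block).

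**Figure D3:**
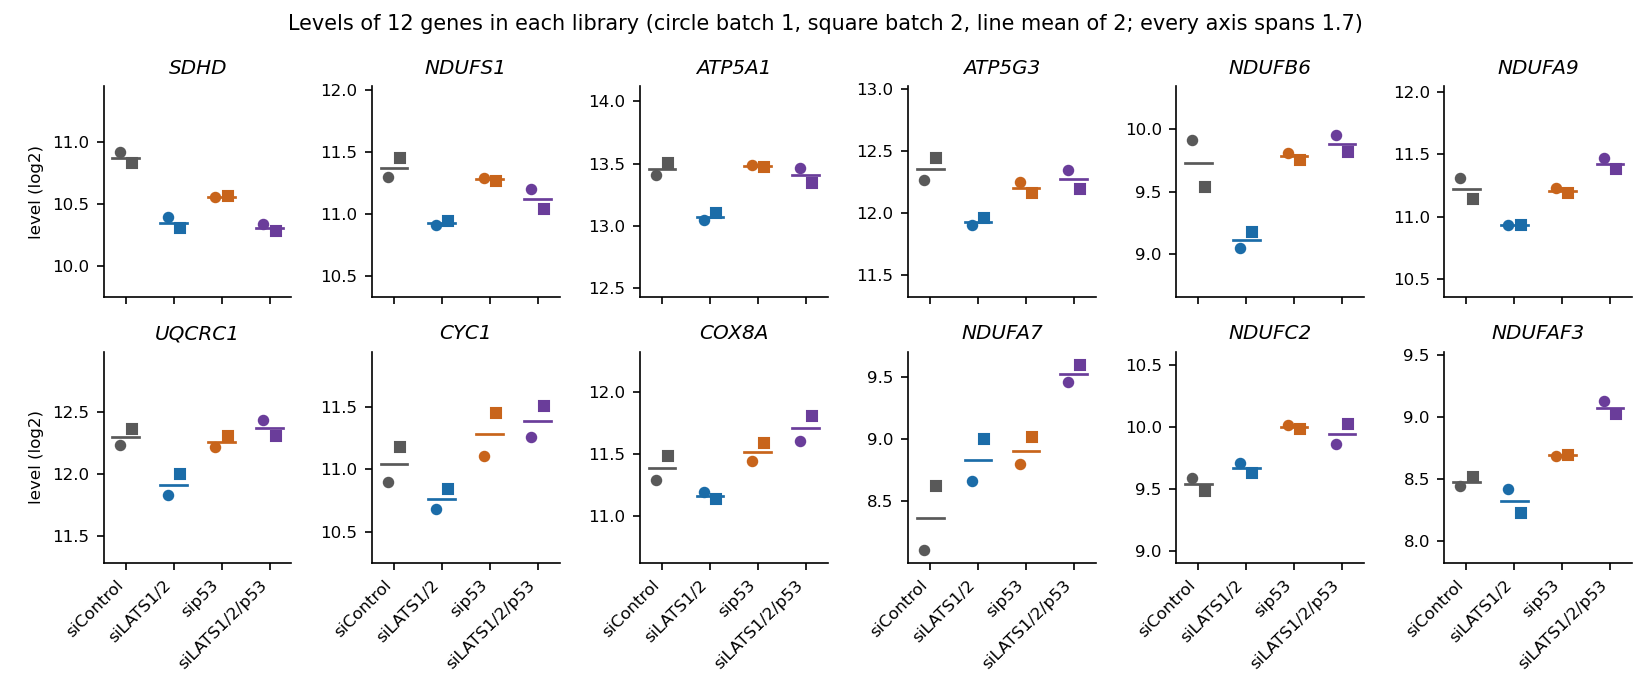
Log2 levels (y axis) of 12 members in each library, by group (x axis); circles are batch 1, squares batch 2 and lines the mean of the 2 libraries. NDUFS1, ATP5A1, ATP5G3, NDUFB6, NDUFA9, UQCRC1, CYC1 and COX8A are lowest in siLATS1/2, SDHD is highest in siControl, and NDUFA7 and NDUFAF3 are highest in siLATS1/2/p53.

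Against siControl, the combined siRNAs left the members as a whole close to the shift of all genes. The median difference was 0.09 on the log2 scale (0.08 for all entries), with 62 of 86 higher. Batch 1 carried it, with a median of 0.16, against 0.0021 in batch 2, and complexes II, III and V had positive medians in batch 1 and negative ones in batch 2. After rescaling it was 0.01. By complex it was 0.16, 0.0025, 0.08, 0.06 and 0.05 for complexes I to V. In limma 5 members rose (5.81%, against 9.07% of all entries) and 1 fell (1.16%, against 5.48%), so calls in both directions were below the background. Of the 5 rises, 4 were among the 37 subunits of complex I (10.8%, near the 9.07% of all entries). After rescaling 2 rose and 2 fell (2.33% each way, against 6.8% and 7.5% of all entries). With the batch block 21 rose (24.4%; 25.5% of all entries), 14 of them subunits of complex I, and 3 fell (3.49%; 13.8% of all entries). With the block and rescaling 14 rose and 8 fell (19.4% and 18.9% of all entries).

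NDUFA7, an accessory subunit of complex I, showed the largest difference of any member in any of the 6 comparisons. It had 8.11 and 8.62 in siControl, 8.66 and 9.0 in siLATS1/2, 8.80 and 9.01 in sip53, and 9.45 and 9.59 in siLATS1/2/p53. The siLATS1/2/p53 libraries were the highest and the siControl libraries the lowest, with batch 2 above batch 1 in every group. NDUFA7 rose by 1.16 ± 0.20 (2.24-fold; limma, adjusted p = 0.0114), by 1.35 in batch 1 and 0.98 in batch 2. NDUFAF3 rose by 0.60 ± 0.12 (limma, adjusted p = 0.0190), NDUFA2 by 0.45 ± 0.11 (0.0324), NDUFA12 by 0.44 ± 0.11 (0.0357) and NDUFC2 by 0.40 ± 0.10 (0.0382). SDHD fell by 0.56 ± 0.08 (limma, adjusted p = 0.00683) and kept its call without each of the 8 libraries in turn. SDHD was the only 1 of the 6 calls to do so. Such a fit leaves 1 library in a group, so its count of calls is not given.

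Against sip53, adding LATS1/2 siRNA was followed by small differences. The median was 0.09 on the log2 scale (0.01 for all entries), and 0 members passed in limma (2.54% of all entries were called higher and 1.12% lower). At an unadjusted p under 0.05 were 6 members and 2216 of all 12315 entries, a larger share. The 5 smallest p-values were those of NDUFAF3 (0.38 ± 0.12), NDUFA7 (0.62 ± 0.20), SDHD (-0.25 ± 0.08), NDUFA1 (0.27 ± 0.10) and COX5A (0.20 ± 0.08). With the batch block 5 rose (5.81%; 12.7% of all entries), namely NDUFA7, NDUFAF3, NDUFA1, NDUFA9 and NDUFB11, and 1 fell, SDHD (1.16%; 9.42% of all entries). The block adjusted p in limma was 0.00147 for NDUFA7, 0.0265 for NDUFAF3, 0.0293 for NDUFA1, 0.0449 for NDUFA9, 0.0460 for NDUFB11 and 0.0301 for SDHD. With the block and rescaling 6 rose and 1 fell (12.4% and 10.6% of all entries).

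Whether LATS1/2 siRNA acted differently with and without p53 siRNA was asked with the interaction, the difference of both effects. It was above 0 for 85 of 86 members, with a median of 0.25 on the log2 scale (0.10 for all entries), and above 0 in both batches for 78 (45.2% of all entries). In limma 0 members passed, as did 0 of all 12315 entries, and 14 members and 807 entries had an unadjusted p under 0.05. With the batch block 5 members were higher (5.81%; 1.75% of all entries higher and 0.276% lower), NDUFA9, NDUFB6, UQCRC1, ATP5G3 and COX7C, and with the block and rescaling 0 were (0.56% of all entries higher and 0.349% lower). The smallest p-values without the block were those of NDUFA9 (0.51 ± 0.12), NDUFB6 (0.72 ± 0.20), COX5A (0.40 ± 0.11), UQCRC1 (0.49 ± 0.14) and ATP5G3 (0.49 ± 0.14), each with a limma adjusted p of 0.74.

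**Figure D4:**
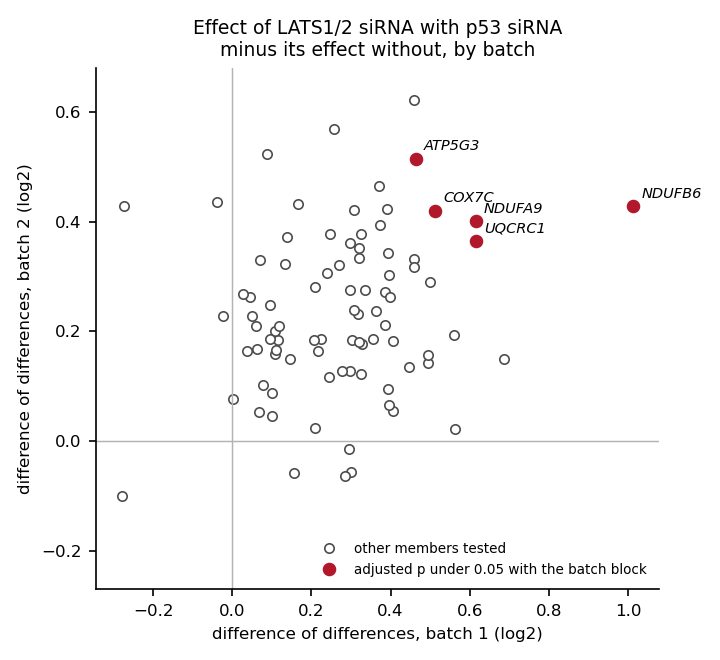
The effect of LATS1/2 siRNA with p53 siRNA minus its effect without (log2) in batch 1 (x axis) and batch 2 (y axis) for the 86 members tested; red points have an adjusted p under 0.05 with the batch as a block. Of the 86 points 78 lie where both axes are positive and the interaction is above 0 in both batches.

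Genes that work beside the respiratory chain are given by list. In siLATS1/2 against siControl 4.89% of all entries were called lower and 2.81% higher. For siLATS1/2/p53 over siLATS1/2 the shares were 11.3% higher and 3.22% lower. The counts for the assembly factors and the regulators of mitochondrial biogenesis were near these shares. Of 32 assembly factors tested outside the members, LYRM7, which acts on complex III, fell in siLATS1/2 (-0.52 ± 0.11; limma, adjusted p = 0.0382) and 0 rose, and 5 rose in siLATS1/2/p53 over siLATS1/2. The largest of these rises was that of COX10, which takes part in making the haem of complex IV (0.70 ± 0.11; limma, adjusted p = 0.0102). Of 16 genes for electron carriers and coenzyme Q synthesis 4 fell and 0 rose in siLATS1/2: PDSS2 (-0.75 ± 0.15), COQ5 (-0.62 ± 0.13), ETFB (-0.49 ± 0.11) and ADCK3 (-0.40 ± 0.09). Of these 16, 5 rose in siLATS1/2/p53 over siLATS1/2, among them ETFB (0.82 ± 0.11; limma, adjusted p = 0.00717). Cytochrome c itself, CYCS, had 12.66 and 12.77 in siControl and 12.22 and 12.38 in siLATS1/2 (-0.42 ± 0.10; limma, adjusted p = 0.0537; 0.000759 with the block).

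All 19 genes of the citrate cycle and pyruvate dehydrogenase list were lower in siLATS1/2 than in siControl, with a median of -0.27. Of the 19, 3 passed, while 4.89% of all entries were called lower. These were PC (-0.79 ± 0.15), which makes oxaloacetate from pyruvate, DLD (-0.52 ± 0.09) and FH (-0.48 ± 0.09). The citrate synthase gene CS had another pattern, with 12.26 and 12.35 in siControl, 12.06 and 12.23 in siLATS1/2, 11.75 and 11.77 in sip53, and 11.66 and 11.61 in siLATS1/2/p53. It fell by 0.55 ± 0.09 with p53 siRNA alone (limma, adjusted p = 0.0274). Of 17 regulators of mitochondrial biogenesis tested, the mitochondrial rRNA methyltransferase gene TFB1M fell in siLATS1/2 (-0.60 ± 0.13; limma, adjusted p = 0.0383), and TFB1M (0.48 ± 0.13) and NRF1 (0.51 ± 0.12) rose in siLATS1/2/p53 over siLATS1/2. TFAM, which packages and transcribes mitochondrial DNA, differed by -0.37 ± 0.15 in siLATS1/2 (limma, adjusted p = 0.178; 0.00761 with the block), and PPARGC1A was at the floor throughout.

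Of 10 genes that link p53 to respiration and metabolism 4 fell and 0 rose with p53 siRNA alone: RRM2B (-1.52 ± 0.16), C12orf5 (-1.11 ± 0.12), which encodes TIGAR, SESN2 (-0.81 ± 0.11) and SESN1 (-0.77 ± 0.14). In that comparison 2.1% of all entries were called lower and 1.76% higher. SCO2, a p53 target that equips complex IV with copper, was near the floor at 5.22 to 6.04 in all libraries and differed by 0.31 ± 0.23 in sip53 (limma, adjusted p = 0.498). For scale, 73 genes of the mitochondrial ribosome had a median of -0.15 in siLATS1/2 against siControl, with 0 up and 2 down, and of 0.30 in siLATS1/2/p53 against siLATS1/2, with 17 up and 0 down. For 79 genes of the cytosolic ribosome the medians were -0.11 and 0.20, with 0 up and 1 down, and 3 up and 1 down. Of all entries 2.81% were called higher and 4.89% lower in the first comparison, and 11.3% and 3.22% in the second. The interaction had a median of 0.18 for the mitochondrial ribosome, with 66 of 73 genes above 0, and of 0.26 for the cytosolic ribosome, with 74 of 79 above 0, near the 0.25 of the respiratory chain genes; 0 and 6 genes were called higher with the batch block. Differences between these lists and the respiratory chain genes were not tested.

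The 2 batches of cells differed, and the members did not follow all entries in every group. The members' median of batch 2 minus batch 1 was 0.13 in siControl, 0.05 in siLATS1/2, -0.02 in sip53 and -0.10 in siLATS1/2/p53. Over all entries the medians were -0.0002, -0.01, -0.02 and -0.06 in the same order. Batch 2 was the higher in all 4 groups for 19 of 86 members (18.4% of all entries were) and the lower in all 4 for 9 (26.2% of all entries). NDUFB7 had the largest mean difference, 0.43 on the log2 scale (0.66 in siControl, 0.28 in siLATS1/2, 0.24 in sip53 and 0.56 in siLATS1/2/p53), and NDUFAF1 the lowest, -0.21. Across the 86 members the mean batch difference went with the GC content of the transcripts (Spearman's rho 0.49, and 0.40 over all entries), a description over genes that share the same 8 libraries. Its rho with transcript length was 0.07.

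**Figure D5:**
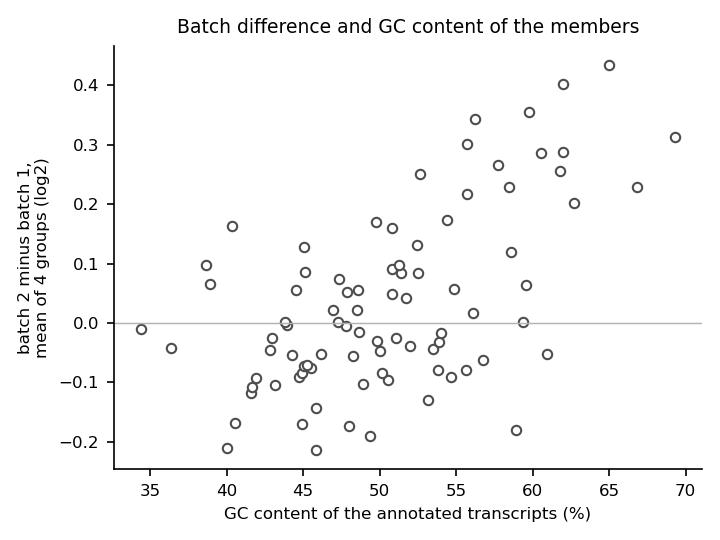
Batch 2 minus batch 1, averaged over the 4 groups (log2, y axis), against the GC content of the annotated transcripts (%, x axis) for the 86 members tested. Members rich in GC tend to lie above 0 and members poor in GC below it, with Spearman's rho 0.49 across genes.

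Some members cannot be counted apart from their neighbours. The libraries do not keep strand, and by GENCODE version 29 the exons of 33 of 86 members overlap those of another gene over at least 100 bases, among them NDUFA7 with AC010323.1 (456 bases), SDHD with AP002884.3 (319) and NDUFA9 with AC005833.1 (983) on the same strand, and NDUFS1 with AC007383.3, NDUFA2 with TMCO6, NDUFAF3 with DALRD3 and SDHC with CFAP126 on the opposite strand. UQCRH (9.47 to 9.93) and UQCRHL (9.66 to 10.10) are near-identical, so the split of reads between them is uncertain.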

How the data were processed

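The deposited values are log2 expression levels per gene, floored by the authors at 5, as the values of the deposited table show. TopHat and the hg19 build are named in the submitters' processing notes, and the TruSeq version 2 kit in the labels' protocols. The sources used here name no counter, annotation or scaling. Depth was estimated from the spacing of low linear values, which did not give back whole reads, and count models were not used. The 4 groups entered 1 limma fit (version 3.58.1, R 4.3.3; mean-variance trend, 4 residual degrees of freedom) without a pseudocount. The test covered the 12315 entries that exceeded the floor in 2 or more libraries, with Benjamini-Hochberg adjustment over them and a threshold of 0.05. The fit without the block was run on simulated data for siLATS1/2 against siControl, with independent noise in each library. Batch deviations shared by libraries were not simulated, so nothing about the fits with the block follows from it. The comparisons were each siRNA against siControl, each added to the other, and the interaction.

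Per the labels the replicate number marks a batch of cells, so the numbers pair the libraries. Deviations from group means of same-numbered libraries correlated between 0.391 and 0.708 over the 86 members for the 6 pairs of groups, and values from the model with a batch block are printed for the named members whose call they change. With 2 libraries a group, p-values without the block rest on the spread between 2 batches of cells of 1 line, pooled over the groups. Those with the block rest on what is left after the shared batch difference is taken out, with 3 residual degrees of freedom. In both fits the spread of each entry was also moderated by that of the other entries.

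Alternatives were the block, rescaling by medians of ratios, both together, other filters, a pseudocount of 32 and no trend. Further ones were only the compared groups, leaving out each library, and leaving out the 2 of lowest estimated depth. The members and gene lists were chosen with earlier results of these data known. Genes were named by rule: up to 10 called members with the smallest p per comparison, or 5 where none was called, the isoform pairs, complex II, CYC1, and up to 4 genes per other list. ATP5B, UQCRC1 and MTND5 were named in siLATS1/2, the block calls in each comparison, and NDUFB7 and NDUFAF1 for batches, after their values were seen. Promoters were matched by symbol to RefSeq (GRCh38.p14) for 76 members, and transcript lengths to GENCODE version 29 for 86. The level of 1 siRNA target is not reported here.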

Additional observations from a re-analysis of the deposited data

Results flagged for a closer look

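For 5 of 86 members (5.81%) the effect of LATS1/2 siRNA differed with and without p53 siRNA in the fit with a batch block. This was a test of the difference itself, in which 1.75% of all entries were called higher and 0.276% lower. The trait was not particular to the members: 6 of 79 cytosolic ribosome genes were called higher in the same fit. Their median interaction was 0.26, against 0.25 for the members. The interaction was 0.508 for NDUFA9 (limma with the block, adjusted p = 0.0277), 0.721 for NDUFB6 (0.0355), 0.49 for UQCRC1 (0.0382), 0.489 for ATP5G3 (0.0458) and 0.466 for COX7C (0.0473), all on the log2 scale. In the fit without the block each had an adjusted p of 0.740, and with the block and rescaling by medians of ratios 0 of 86 members passed. Each of the 5 was above 0 in both batches, and the batches differed most for NDUFB6, with 1.01 in batch 1 and 0.43 in batch 2.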

How the results depend on the processing

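With the batch as a block (the replicate block), the number of members called was 31 for siLATS1/2 against siControl, 6 for sip53, 24 for siLATS1/2/p53 against siControl, 53 against siLATS1/2, 6 against sip53 and 5 for the interaction. With the block and rescaling by medians of ratios the numbers were 18, 8, 22, 18, 7 and 0, and their directions and the shares of all entries stand beside each comparison. Rescaling alone gave 2 for siLATS1/2 and 5 for siLATS1/2/p53 against siLATS1/2. Without the mean-variance trend these were 2 and 9. Above the floor in all 8 libraries, 1 was called for sip53, NDUFC2. For the fit without the trend and the fit with this filter, the shares of all entries called are not given here.

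Fits of only the groups compared called 0 for siLATS1/2, 0 for siLATS1/2/p53 against siControl and 0 against siLATS1/2, with fewer libraries to estimate the spread. The shares of all entries called in these fits are not given here, so nothing particular to the members follows from them. Only the groups compared was not run for the interaction. For the fits without 1 library, the shares of all entries called are not given here either. Each of those fits also leaves 1 library in a group. The members called in them thus cannot be set against the background, and nothing particular to the members follows. Without 1 library the numbers were 0 to 2 for siLATS1/2, 1 to 3 for siLATS1/2/p53 against siControl and 0 to 16 against siLATS1/2.

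Rescaling, with or without the block, moved the members' median difference to -0.1105 for siLATS1/2, -0.03677 for sip53, 0.01489 for siLATS1/2/p53 against siControl, 0.109 against siLATS1/2 and 0.1554 for the interaction. Without the 2 libraries of lowest depth the median was -0.03388 for sip53, 0.00205 for siLATS1/2/p53 against siControl and 0.03813 against sip53. Without 1 library the median ranged from -0.2058 to -0.1369 for siLATS1/2 and from -0.03388 to 0.07138 for sip53. For siLATS1/2/p53 it ranged from 0.04503 to 0.1339 against siControl, from 0.2311 to 0.3131 against siLATS1/2 and from 0.03813 to 0.1259 against sip53. For the interaction it ranged from 0.2008 to 0.3074. The sign for sip53 thus depended on the scaling and on siControl replicate 1. None of the 37 values of named members reversed under any alternative (32 values in the fits of only the groups compared). These members were named for the smallest p in the same data, so the lack of a reversal says little. With only the groups compared 22 of 32 were weaker and 0 stronger. With rescaling 12 of 37 were weaker and 0 stronger, and with the block 0 were weaker and 13 stronger. The cause of the other shifts was not tested.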
